A study of Rattus norvegicus with 18 samples.

Results

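The genes described here run the cell division cycle and DNA replication: 42 genes chosen by name for their roles as cyclins and cyclin-dependent kinases (CDKs), CDK inhibitors, RB and E2F proteins, replication factors, nucleotide synthesis enzymes, and mitotic and chromosome proteins. They were looked up by symbol in the list of 5-hydroxymethylcytosine (5hmC) peaks, the only place where the data pair an identifier with a symbol. The symbol was found for 28 of the 42, and these 28 hold 159 of the 215951 peaks. Cdk4, Ccne1, Ccne2, Ccnb1, Ccnb2, Cdkn1b, Mcm2, Mcm4, Mcm5, Pcna, Tyms, Aurkb, Plk1 and Cdc20 were not found and are not analysed here. The samples were primary rat Schwann cells at passage 3, treated with vitamin C (VitC) or left as untreated controls. The labels give no dose, duration, strain, sex or age, no genetic change and no other agent, and nothing says that replicates were grown apart or taken from different animals, so the p-values cover only differences among these samples, which could be technical. Each group has 3 RNA libraries, 3 libraries of DNA precipitated with an antibody to 5hmC (hMeDIP) and 3 libraries of input DNA, 18 in all.

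Schwann cells are the glia of peripheral nerves, and in culture they divide under mitogens and stop dividing as they differentiate and myelinate. D-type cyclins pair with Cdk4 or Cdk6 and phosphorylate RB, which releases E2F factors. E2F factors switch on the genes for DNA synthesis, and CDK inhibitors oppose the kinases. Cyclin A and cyclin B with Cdk2 or Cdk1 then drive replication and mitosis. Vitamin C is a cofactor of the TET enzymes, which turn 5-methylcytosine into 5hmC.

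Promoter sequences are shown for 3 members whose values recur below: Rb1 and Cdkn1a, the members with a 5hmC peak labelled as lying at the transcription start, and Mcm6, the replication gene whose RNA fell. Each run is the 250 bases before the RefSeq start, on the gene's strand, from the rat build GRCr8. Capitals mark CG dinucleotides, the sites of cytosine methylation, in Rb1 and Cdkn1a.
Rb1 (chr15:54911858-54912107, minus strand): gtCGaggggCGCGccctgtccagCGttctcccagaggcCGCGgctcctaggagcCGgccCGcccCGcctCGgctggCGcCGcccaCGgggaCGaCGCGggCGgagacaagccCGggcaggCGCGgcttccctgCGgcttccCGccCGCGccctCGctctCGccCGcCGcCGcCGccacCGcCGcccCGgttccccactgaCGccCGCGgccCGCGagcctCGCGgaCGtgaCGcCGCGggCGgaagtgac
Cdkn1a (chr20:7150682-7150931, plus strand): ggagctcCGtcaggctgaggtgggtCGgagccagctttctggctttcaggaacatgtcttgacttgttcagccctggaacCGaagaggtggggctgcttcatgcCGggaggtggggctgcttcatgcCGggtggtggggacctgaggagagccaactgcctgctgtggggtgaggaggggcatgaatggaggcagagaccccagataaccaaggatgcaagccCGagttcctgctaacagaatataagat
In Mcm6 the capitals mark 2 overlapping E2F motifs, 1 on each strand.
Mcm6 (chr13:42404353-42404602, minus strand): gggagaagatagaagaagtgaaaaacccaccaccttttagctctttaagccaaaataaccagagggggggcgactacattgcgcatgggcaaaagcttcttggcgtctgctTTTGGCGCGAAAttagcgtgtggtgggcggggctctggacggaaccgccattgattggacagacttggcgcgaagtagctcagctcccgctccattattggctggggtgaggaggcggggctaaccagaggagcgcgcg

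The Rb1 window holds 45 CG dinucleotides and the Cdkn1a window 6, against a median of 5 over 33469 RefSeq promoter windows of the same length. RefSeq promoters were matched by symbol for 19 of the 28 found members, with a median of 19 CG. An E2F motif (TTTCCCGC, TTTCGCGC, TTTGCCGC or TTTGGCGC, either strand) stood in 4 of the 19 (Cdk1, E2f3, Mcm6 and Mcm7), a share of 21.1%, against 1.73% of all windows. Each of these motifs contains a CG, and the members' windows had the higher median CG, so the windows compared differ in base content. The part of CG content in the E2F share was not tested. The CCAAT box, on either strand, stood in 12 of 19, or 63.2%, against 34.0% of all windows, and the cell cycle homology element TTTGAA in 4 of 19, or 21.1%, against 16.2%. These matches describe the letters of the windows and no site of binding. Cdkn1c, Ccnd1, Ccna2, Tpx2, E2f1, Cdk6, Ccnd2, Rrm2 and Cdc6 had no matched window. Peak positions below are as the peak list gives them, on a rat build not given in the sources used here, so no peak was placed on these windows.

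With VitC, the RNA of the kinase Cdk6, cyclin D2, the CDK inhibitor Cdkn1a and the RB gene rose, while the RNA of cyclin D1, Cdk2, a replicative helicase subunit and 3 mitotic spindle genes fell. Of the 28 members, 23 had enough reads to be tested, and 10 passed the threshold (adjusted p under 0.05 in edgeR's quasi-likelihood test), 4 higher and 6 lower. Over all genes tested, 40.1% passed, 19.1% higher and 21% lower, so the members' share of 10 in 23 lies near the background. The median log2 change of the 23 was -0.08, against -0.01 over all genes. In 12 of the 23 the VitC and control values did not overlap, and the same held for 54.7% of all genes tested. Levels are CPM, reads of a gene per 1000000 reads in genes, with each library's reads in genes multiplied by its TMM factor. Changes are log2 fold changes, VitC over control, ± the fitted standard error. In bulk RNA, fewer cells in cycle and less RNA per cycling cell cannot be told apart.

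**Figure D1:**
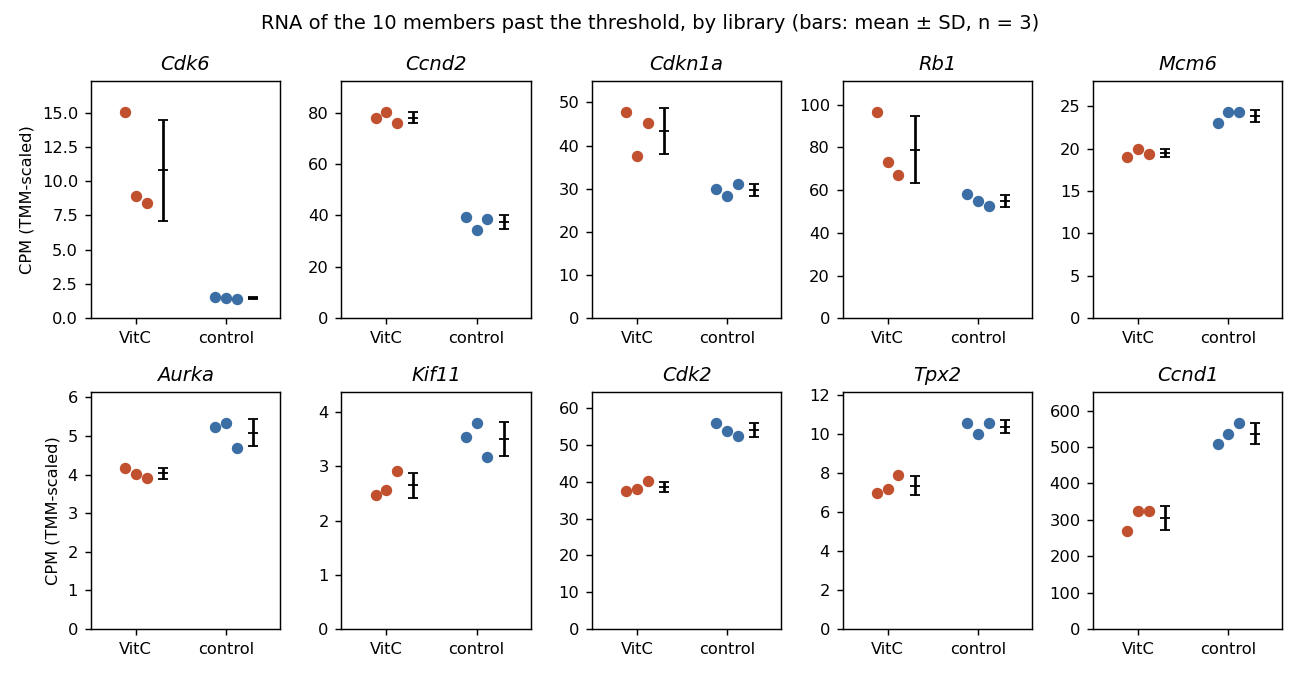
RNA level of the 10 members past the threshold, in CPM scaled by TMM factors (vertical axis from 0), for the 3 VitC and the 3 control libraries of each gene, with the mean and SD beside them. The VitC and control points do not overlap in any of the 10 panels, and VitC replicate 1 stands above the other VitC libraries in Cdk6 and Rb1.

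Among cyclins and CDKs, 6 were tested, of which 2 rose and 2 fell. Cdk6, a partner of the D-type cyclins, had 15.0, 8.92 and 8.43 CPM in the VitC libraries, against 1.53, 1.48 and 1.42 CPM in the control libraries. The lowest VitC library stood above every control library, and VitC replicate 1 was the highest. The change was 2.86 ± 0.25 on the log2 scale, a fold of 7.26 (adjusted p = 5.67e-05 in edgeR), the greatest among the tested members. Without VitC replicate 1 it was 2.55 ± 0.14, a fold of 5.85. The reads behind it were 240 to 382 per VitC library and 34 to 50 per control library.

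Cyclins D1 and D2 changed in opposite directions. Ccnd2, which encodes cyclin D2, had 78.0, 80.3 and 76.0 CPM with VitC, against 39.3, 34.2 and 38.7 CPM in controls. It rose by 1.06 ± 0.07, a fold of 2.09 (adjusted p = 1.07e-05 in edgeR). Ccnd1, the cyclin D gene with the most reads in these cells, had 268, 324 and 323 CPM with VitC, against 508, 536 and 567 CPM in controls. It fell by 0.82 ± 0.08 on the log2 scale (adjusted p = 0.000129 in edgeR). In neither gene did the groups overlap. Ccnd2 gave 29.1, 24.8 and 23.5 reads for every 100 reads of Ccnd1 in the VitC libraries, against 7.74, 6.38 and 6.83 in the control libraries, a ratio within each library that no scaling touches.

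The remaining D-type cyclin gene, Ccnd3, had 67.8, 79.6 and 81.9 CPM with VitC, against 75.9, 79.1 and 80.4 CPM in controls, and its groups overlapped (log2 change -0.04 ± 0.08, adjusted p = 0.726 in edgeR). Cdk2, the partner of cyclins E and A, had 37.5, 38.0 and 40.1 CPM with VitC, against 56.1, 53.7 and 52.4 CPM in controls. It fell by 0.49 ± 0.06 (adjusted p = 0.000352 in edgeR), with no overlap between groups. Ccna2, which encodes cyclin A2, had only 14 to 18 reads per VitC library, against 8 to 13 per control library. Its change of 0.75 ± 0.28 did not pass (adjusted p = 0.0601 in edgeR), although the groups did not overlap.

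Of the 3 CDK inhibitors tested, 1 rose. Cdkn1a, which binds and inhibits cyclin-CDK complexes and is a target of p53, had 47.8, 37.5 and 45.2 CPM with VitC, against 29.99, 28.3 and 31.1 CPM in controls. It rose by 0.55 ± 0.09, a fold of 1.46 (adjusted p = 0.00213 in edgeR), and each VitC library was above each control library. Cdkn1c, another inhibitor of the same family, had 15.9, 17.7 and 18.6 CPM with VitC, against 20.5, 18.6 and 18.4 CPM in controls, and did not pass (-0.14 ± 0.09). Cdkn2c, an inhibitor of Cdk4 and Cdk6, gave 0.01 ± 0.09.

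Of the RB and E2F genes, Rb1, the protein that holds E2F in check, had 96.6, 73.0 and 66.9 CPM with VitC, against 58.0, 54.7 and 52.5 CPM in controls. It rose by 0.52 ± 0.13 (adjusted p = 0.0118 in edgeR), with VitC replicate 1 far above the other treated libraries. Without that library the rise was 0.35 ± 0.06 (adjusted p = 0.000748 in edgeR), and without control replicate 3 the call was lost (0.49 ± 0.16, adjusted p = 0.0574 in edgeR). E2f3, an activating E2F factor, had 21.9, 14.3 and 14.1 CPM with VitC, against 19.98, 18.5 and 18.2 CPM in controls. VitC replicate 1 lay above every control library and the other VitC libraries below every one, and the change of -0.18 ± 0.16 did not pass (adjusted p = 0.402 in edgeR). Without VitC replicate 1 it was -0.41 ± 0.08 and passed (adjusted p = 0.00102 in edgeR). E2f1 did not pass (0.15 ± 0.09).

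Cdk6, Rb1 and E2f3 were thus all highest in VitC replicate 1. That library also stood apart over all genes: a chi-square comparison of counts gave 27.7 and 38.6 per degree of freedom against VitC replicates 2 and 3, and 5.11 to 8.67 between controls and 5.29 between the other treated libraries. It had 46.1% of its counted reads in genes, against 49.1% to 57.7% in the other RNA libraries. The part of this library's difference in the changes of the 3 genes was measured only by leaving it out, as given above. Without it, 4 members rose and 6 fell, where 2718 of all 13105 tested genes rose and 2916 fell, but the members' lower set changed. E2f3 entered it (adjusted p = 0.00102 in edgeR) and Kif11 left it (adjusted p = 0.0869 in edgeR).

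**Figure D2:**
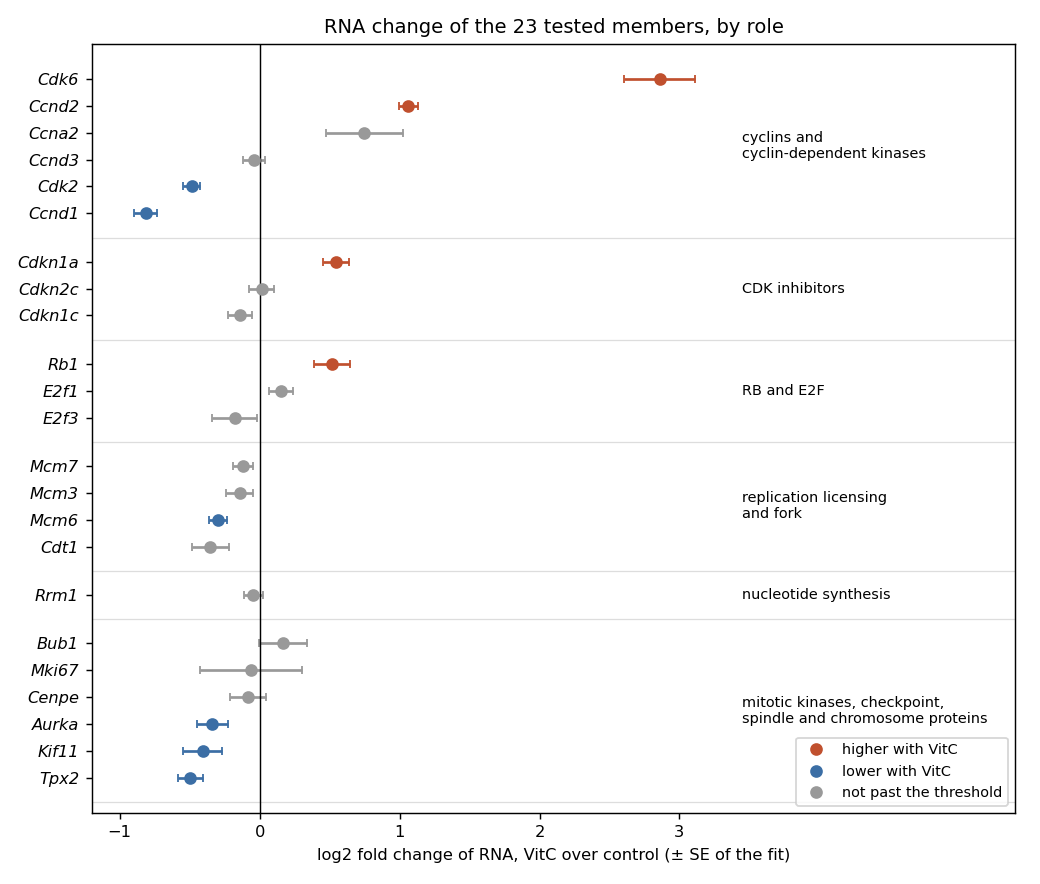
Log2 fold change of RNA, VitC over control, ± the fitted standard error (horizontal axis), for the 23 tested members grouped by role (vertical axis); red marks genes higher and blue genes lower past the threshold, and grey the rest. The members past the threshold run from 2.86 in Cdk6 to -0.82 in Ccnd1, and no replication or mitotic gene is marked as higher.

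Of 4 replication genes tested, 1 passed. Mcm6, a subunit of the MCM helicase that unwinds DNA at the fork, had 19.0, 19.9 and 19.4 CPM with VitC, against 23.1, 24.3 and 24.3 CPM in controls. It fell by 0.30 ± 0.06 (adjusted p = 0.00675 in edgeR), and the groups did not overlap. Mcm7, of the same ring, had 54.1, 55.7 and 63.5 CPM with VitC, against 63.6, 63.7 and 61.3 CPM in controls. It did not pass (-0.12 ± 0.07, adjusted p = 0.213 in edgeR), but did without VitC replicate 3 (-0.19 ± 0.07, adjusted p = 0.0454 in edgeR). Mcm3 gave -0.14 ± 0.10 and Cdt1, which loads the ring onto DNA, -0.35 ± 0.13, and neither passed (adjusted p = 0.266 and 0.0625 in edgeR). Cdt1 passed with library-size scaling (adjusted p = 0.0372 in edgeR). Of the nucleotide synthesis genes, Rrm1, the large subunit of ribonucleotide reductase, had 79.3, 87.8 and 89.7 CPM with VitC, against 85.2, 92.7 and 87.0 CPM in controls, and its change of -0.04 ± 0.07 did not pass (adjusted p = 0.621 in edgeR).

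Of 6 mitotic genes tested, 3 fell and 0 rose, all at low levels. Tpx2, which activates Aurora A on the spindle, had 6.97, 7.18 and 7.91 CPM with VitC, against 10.6, 10.01 and 10.6 CPM in controls. It fell by 0.50 ± 0.09 (adjusted p = 0.00289 in edgeR) and stayed past the threshold under all 12 alternative settings. Aurka, which encodes Aurora A, had 4.17, 4.01 and 3.90 CPM with VitC, against 5.22, 5.34 and 4.69 CPM in controls (-0.34 ± 0.11, adjusted p = 0.0385 in edgeR). Its call was lost under 6 of 12 alternatives, among them DESeq2 (adjusted p = 0.162). Kif11, the kinesin that separates spindle poles, had 2.48, 2.56 and 2.92 CPM with VitC, against 3.54, 3.81 and 3.18 CPM in controls (-0.41 ± 0.14, adjusted p = 0.0440 in edgeR). Its call was lost under 9 of 12 alternatives, among them DESeq2 (adjusted p = 0.165).

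Cenpe, a kinetochore motor with the most reads among the mitotic members that did not pass, had 6.54, 5.27 and 5.69 CPM with VitC, against 6.65, 6.47 and 5.31 CPM in controls. Its groups overlapped (-0.08 ± 0.13, adjusted p = 0.644 in edgeR). The checkpoint kinase gene Bub1 gave 0.17 ± 0.17 and also did not pass.

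Among the members, 7 had few reads in every library, while others with roles in the same processes, such as Rrm1, Mcm7 and Mcm6, had the higher levels given above. Cdk1 (the mitotic kinase), Cdc6 (a loader of the MCM ring), Rrm2 (the small subunit of ribonucleotide reductase), Top2a (topoisomerase II alpha) and Bub1b (a spindle checkpoint protein) had 0 to 22 reads in any library and were too low to be tested. Mki67, which encodes the proliferation marker Ki-67, had 12, 8 and 16 reads in the VitC libraries, against 17, 11 and 11 reads in the control libraries, out of 23381814 to 33173282 reads in genes per library. With Ccna2, these 7 members stayed at or under 0.711 CPM in each group's libraries. The default filter on low counts left out the 5 untested genes, so nothing is said here about a difference between groups in them.

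Most other tested genes of replication and mitosis did not pass. Of 36 tested genes for origins and forks outside the members, 2 rose and 1 fell, where 40.1% of all genes passed, and their median log2 change was 0.04. The origin recognition gene Orc5 had 52.96, 52.8 and 50.7 CPM with VitC, against 63.4, 61.0 and 60.9 CPM in controls (-0.24 ± 0.06), while Gins1, of the fork helicase, and Rfc3, of the clamp loader, rose by 1.09 ± 0.25 and 0.28 ± 0.08. Rfc3 lost its call under 6 of 12 alternatives. Of 29 tested mitosis genes, 3 rose and 4 fell, also a smaller share than over all genes, with a median of -0.16. Both lists hold genes with few reads, such as Orc1 with 6 to 16 and Birc5 with 10 to 16 per library, beside others such as Bub3 with 2242 to 4127. The part of low counts in these smaller shares was not tested. The checkpoint gene Bub3 had 88.3, 94.1 and 97.5 CPM with VitC, against 119, 122 and 123 CPM in controls (-0.38 ± 0.06), and the condensin gene Ncaph fell by 0.999 ± 0.16, while the kinesin Kif22 and anillin (Anln) rose by 0.43 ± 0.07 and 0.79 ± 0.17.

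Of 30 tested genes of cell cycle control, 6 rose and 6 fell, a share near that of all genes, with a median of -0.06. Ccng1, which encodes cyclin G1, had 470, 449 and 491 CPM with VitC, against 666, 628 and 605 CPM in controls (-0.43 ± 0.06), and Wee1, which inhibits Cdk1, fell by 0.53 ± 0.08. Tfdp2, a dimer partner of E2F, rose by 0.58 ± 0.08, and Mycn, a MYC family transcription factor, rose by 0.82 ± 0.12. Of 15 tested p53 target genes other than Cdkn1a, 4 rose and 2 fell, with a median of 0.11. Among them Sesn2 had 59.6, 63.6 and 64.8 CPM with VitC, against 33.5, 34.2 and 38.0 CPM in controls (0.83 ± 0.07), and Phlda3 rose by 0.31 ± 0.07, while Gadd45a and Ei24 fell by 0.47 ± 0.07 and 0.41 ± 0.06. The adjusted p of the 15 genes named in these lists was at most 0.0271 in edgeR.

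Markers of other cell types moved with treatment as well. All 8 Schwann cell markers that had a symbol were expressed, at a summed 10224 to 11085 CPM with VitC and 10971 to 11175 CPM in controls, with S100b and Erbb3 lower and Mbp and Cdh19 higher. Of 4 tested mural markers, Tagln, Pdgfrb and Des rose and 0 fell, and the list summed to 194 to 221 CPM with VitC, against 78.2 to 81.3 CPM in controls. Myh11, with 104 to 141 reads per library, did not pass (0.26 ± 0.12, adjusted p = 0.116 in edgeR). The 4 untested mural markers reached at most 10 reads. Gsn, Pdgfra and Pi16, of 4 tested fibroblast markers, fell and Col1a1 rose, and the 3 untested ones had at most 1 read. The fibroblast list summed to 9271 to 10782 CPM with VitC, against 4513 to 4707 CPM in controls, nearly all of it Col1a1, which averaged 10033 ± 770.1 CPM with VitC and 4480 ± 96.4 CPM in controls (SD, n = 3 each). The 1 tested macrophage marker did not pass and the 1 tested endothelial marker, Tek, rose, with list sums of at most 2.003 and 4.29 CPM in any library. Whether cells of these other types were present, and any part of them in the changes of the members, was not tested.

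In hMeDIP, most members' peaks that changed carried relatively more 5hmC reads with VitC. Of the 159 peaks, 88 were higher and 34 lower past the threshold (adjusted p under 0.05 in edgeR). Over all peaks 75.4% passed, 37.7% higher and 37.7% lower, and over the peaks in or near a gene, 45.1% were higher and 30.1% lower. The members' shares were 55.3% and 21.4%. Their median log2 change was 0.26, against 0.16 over peaks in or near a gene and 0.04 over all peaks. In input DNA, 0 of the 159 peaks passed in edgeR, and 6 had an unadjusted p under 0.05. Over input, 54 were higher and 19 lower. Of all peaks 50% passed over input, 21.2% higher and 28.8% lower. All 73 of the members' peaks that passed had the direction of the hMeDIP test. Both tests use the same hMeDIP reads and no input peak passed, so this agreement adds no separate evidence.

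These counts depend on how the libraries are scaled. The shares of counted hMeDIP reads that fell in peaks were 41.4%, 43.9% and 40.8% with VitC, against 31.7%, 30.8% and 35.7% in controls. The groups did not overlap, and a two-sided exact permutation test gave p = 0.1, the lowest possible with 3 against 3. In input DNA the shares were 8.43% to 8.58% with VitC and 8.49% to 8.65% in controls. The values above are scaled by TMM factors, which remove a change shared by most peaks. Scaled by all counted reads, in and outside peaks, the median of all peaks moved up by 0.43, and 124 of the members' peaks rose and 9 fell, where all peaks gave 60.9% higher and 24.5% lower. A direction under TMM scaling is therefore relative to the other peaks.

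A comparison of replicates bears on the tests too. The hMeDIP counts of replicates 1 and 3 differed by no more than sampling noise over all peaks, in VitC (chi-square per degree of freedom 0.896) and in controls (0.963), whereas the other pairs gave 1.08 to 1.47. The values of 0.896 and 0.963 are under 1, so replicates 1 and 3 were more alike than independent sampling would make them. The reason was not tested. With replicates 1 and 3 summed and counted as 1 sample, 87 of the members' peaks rose and 30 fell, where all peaks gave 36.9% higher and 36.3% lower. All pairs of input libraries agreed within sampling noise (0.978 to 0.988).

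The order of the peak list also moves with these directions. The list runs through the chromosomes in 2 runs, by a rule not given in the sources used here. In the first run, 88.3% of all peaks were lower and 2.99% higher with VitC, and in the second 53.8% were higher and 14.3% lower. Of the members' peaks, 22 stood in the first run, with 17 lower and 2 higher, and 137 in the second run, with 86 higher and 17 lower. In the first run 77.3% of the members' peaks were lower and 9.09% higher, against 84.4% and 4.37% of all peaks in or near a gene. In the second run 62.8% of the members' peaks were higher and 12.4% lower, near the 58.2% and 12.5% of all peaks in or near a gene. The part of this order in the members' counts was not tested.

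**Figure D3:**
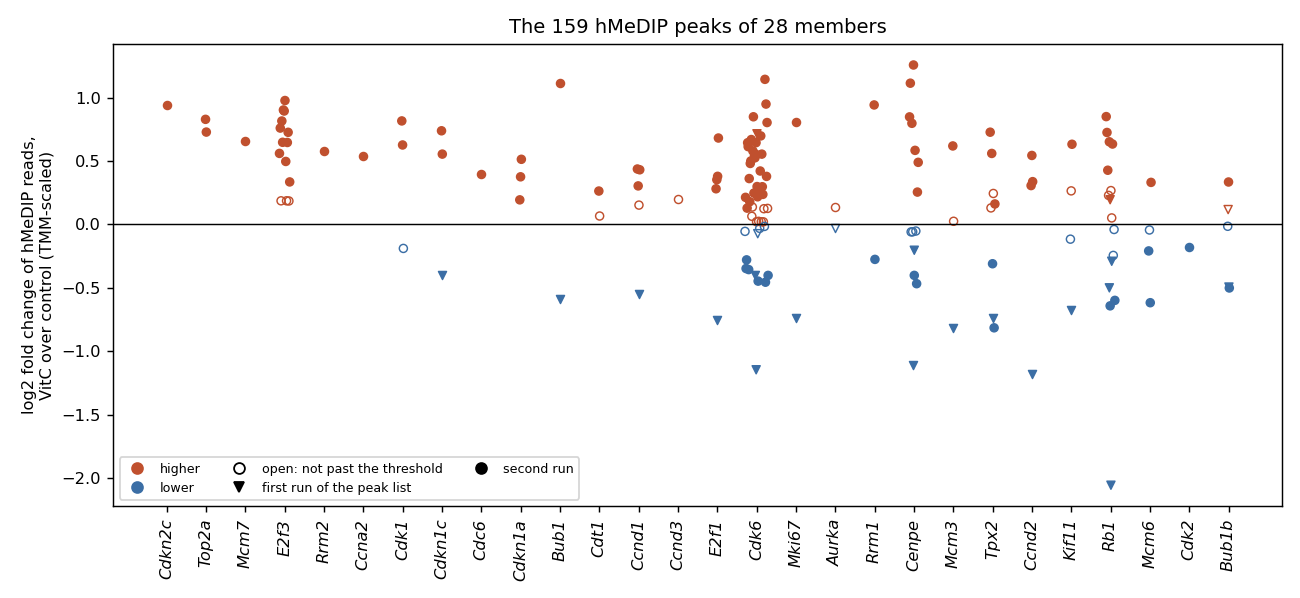
Log2 fold change of hMeDIP reads, VitC over control, TMM-scaled (vertical axis), for each of the 159 peaks of the 28 found members, ordered by the change of their summed reads (horizontal axis). Red points are higher and blue points lower, open symbols did not pass the threshold, and triangles mark the 22 peaks of the first run of the list, 17 of which are lower past the threshold; all 14 peaks of E2f3 lie above 0.

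The number of peaks varied from 1 in 7 members to 49 in Cdk6, whose longest listed transcript spans 180751 bases. By position, 131 of the 159 lay in gene bodies, 20 in the outer promoter class and 6 in the middle one, and 2 at the start. Peaks were 324 to 4310 bases long. The precipitated reads stood above input in every member peak, by 2.23 to 9.48 times with VitC and by 1.43 to 9.74 times in controls, each library scaled by its counted reads. These regions were listed as peaks of hMeDIP reads, so reads above input in them are no finding about the members. The median over input was 4.83 times with VitC and 3.18 times in controls, and 137 of the 159 peaks had the greater value with VitC. The same count over all peaks was not made. Scaled by all counted reads, 60.9% of all peaks were higher with VitC in hMeDIP, so a rise under this scaling is not particular to the members. Under TMM scaling, 69 gene body peaks of the members were higher and 28 lower, or 52.7% and 21.4%. Over all gene body peaks the shares were 45.4% and 29.8%. In the outer promoter class 15 were higher and 3 lower, or 75% and 15%, against 43.1% and 31.7% of all peaks in that class.

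E2f3 carried more hMeDIP reads with VitC in most of its peaks, which cover 13728 bases of a transcript span of 72597. All 14 of its peaks changed upward, 11 of them past the threshold, and none stood in the first run of the list. The peak at chromosome 17, 36344394 to 36346064, had 11.3, 10.5 and 10.9 CPM with VitC, against 6.17, 5.89 and 6.39 CPM in controls (0.82 ± 0.07, adjusted p = 2.23e-14 in edgeR). The peak at 36398198 to 36400458 had 12.99, 13.8 and 12.7 CPM with VitC, against 8.31, 7.02 and 8.32 CPM in controls (0.73 ± 0.07). The peak at 36354407 to 36355334 had 6.87, 7.66 and 7.498 CPM with VitC, against 4.02, 4.07 and 3.76 CPM in controls (0.90 ± 0.09). These 3 gene body peaks are among the 6 higher member peaks of smallest p, and in none of them did the groups overlap. They also passed over input.

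Cenpe held peaks that moved strongly both ways within one gene. Its gene body peak at chromosome 2, 240437617 to 240438587, had 6.40, 5.87 and 5.99 CPM with VitC, against 3.05, 2.47 and 2.17 CPM in controls (1.26 ± 0.11, adjusted p = 1.20e-14 in edgeR). A second, at 240425646 to 240426365, had 7.96, 8.16 and 6.91 CPM with VitC, against 4.51, 4.29 and 4.40 CPM in controls (0.80 ± 0.09), but did not pass over input (adjusted p = 0.0970 in edgeR). Another, at 240402720 to 240403799, had 5.17, 5.22 and 5.33 CPM with VitC, against 10.4, 11.3 and 12.1 CPM in controls (-1.11 ± 0.08, adjusted p = 1.36e-18 in edgeR). This peak lies 7107 bases from the start and belongs to the first run of the list. Over the 14 peaks of Cenpe, 7 were higher and 4 lower, and the change of their sum did not pass (0.00 ± 0.03, adjusted p = 0.949 in edgeR).

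Rb1 held the member peak with the greatest fall. At chromosome 15, 55138013 to 55138516, in the gene body, it had 1.67, 1.57 and 1.51 CPM with VitC, against 6.58, 6.76 and 6.45 CPM in controls. The groups were far apart, and the change was -2.06 ± 0.11 (adjusted p = 4.63e-22 in edgeR). Over input the peak stood at 2.50 times with VitC and 7.52 times in controls. It belongs to the first run of the list, where 84.4% of all peaks in or near a gene were lower. A neighbouring gene body peak, at 55142716 to 55144719, had 8.65, 8.43 and 8.93 CPM with VitC, against 13.05, 13.6 and 13.9 CPM in controls (-0.64 ± 0.06). Its call was lost with scaling by all counted reads (-0.21, adjusted p = 0.0676 in edgeR). Over the 16 peaks of Rb1, 6 were higher and 5 lower.

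Of the other falling peaks of smallest p, each lay in a gene body. The peak of Ccnd2 at chromosome 4, 159683422 to 159683982, had 2.73, 2.07 and 2.36 CPM with VitC, against 5.30, 5.59 and 5.26 CPM in controls (-1.18 ± 0.11). The peak of Tpx2 at chromosome 3, 148364863 to 148365710, had 5.15, 5.398 and 5.87 CPM with VitC, against 10.001, 8.70 and 10.1 CPM in controls (-0.82 ± 0.08). The peak of Cdk6 at chromosome 4, 27819402 to 27819961, had 1.98, 1.59 and 1.92 CPM with VitC, against 3.76, 4.68 and 3.82 CPM in controls (-1.15 ± 0.13). None of the 3 overlapped between groups, and all 3 passed over input and with scaling by all counted reads. The Ccnd2 and Cdk6 peaks belong to the first run of the list, where most peaks were lower, and the Tpx2 peak to the second. Along Cdk6 as a whole the balance was the other way: 29 of its 49 peaks were higher and 8 lower.

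**Figure D4:**
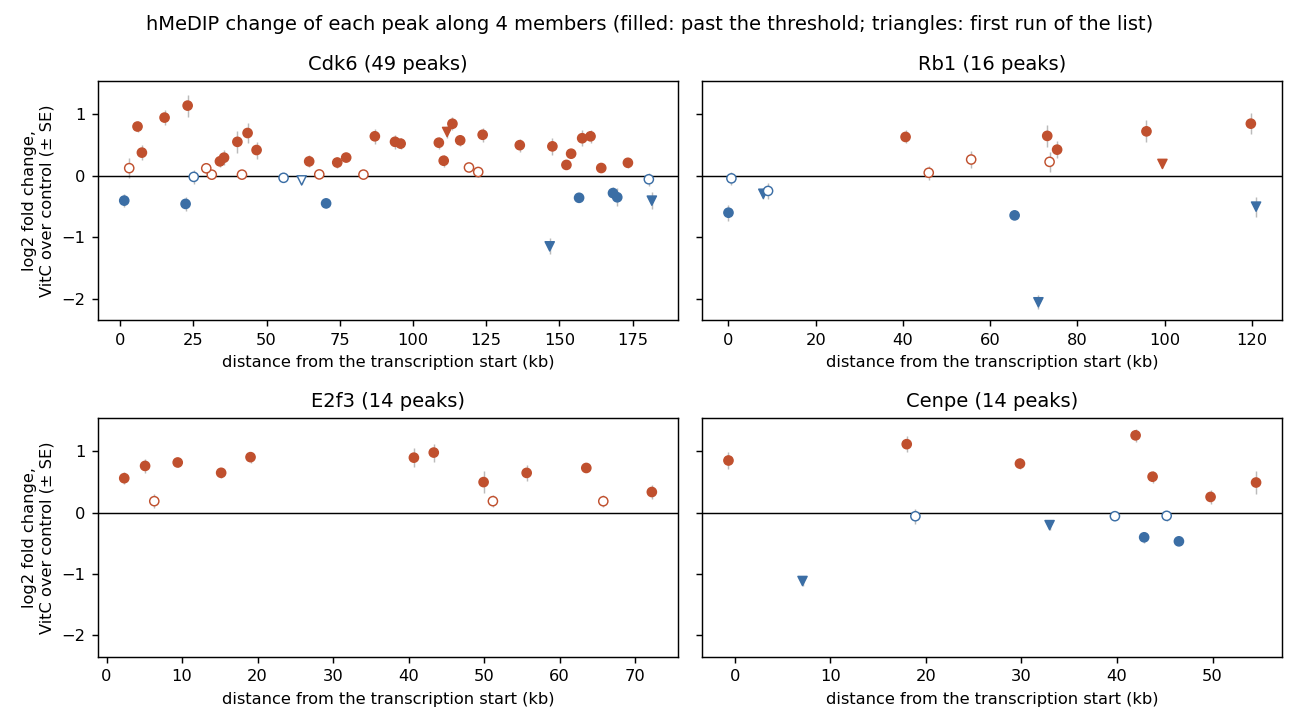
Log2 fold change of hMeDIP reads, VitC over control, ± the fitted standard error (vertical axis), against the distance of each peak from the transcription start in kb (horizontal axis), for the 4 members with the most peaks. Cdk6 (49 peaks), Rb1 (16) and Cenpe (14) hold higher and lower peaks, and the 14 peaks of E2f3 are all above 0; filled symbols passed the threshold and triangles belong to the first run of the peak list.

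The peaks nearest to the transcription start of the 10 members called in RNA were lower in 6, higher in 3 and not past the threshold in 1. Over all peaks in or near a gene 45.1% were higher and 30.1% lower, and the count for nearest peaks of other genes was not made. The peaks of Kif11, Ccnd1 and Tpx2, all lower, and of Aurka stood in the first run of the list. In that run 84.4% of all peaks in or near a gene were lower. The Cdkn1a peak at chromosome 20, 6355368 to 6357907, labelled as proximal promoter, had 16.7, 15.4 and 15.8 CPM with VitC, against 10.9, 11.4 and 11.2 CPM in controls. It was higher by 0.51 ± 0.06 (adjusted p = 3.70e-11 in edgeR), and over input it stood at 6.93 times with VitC and 3.50 times in controls. The Rb1 peak at chromosome 15, 55209129 to 55209545, also labelled as proximal promoter, had 2.20, 1.89 and 2.09 CPM with VitC, against 3.01, 2.90 and 3.36 CPM in controls. It was lower by 0.60 ± 0.13 relative to other peaks (adjusted p = 5.81e-05 in edgeR), but not with scaling by all counted reads (-0.17, adjusted p = 0.243 in edgeR) nor over input (adjusted p = 0.160 in edgeR). The RNA of both genes rose.

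For Cdk6 the nearest peak lay 1392 bases from the start (chromosome 4, 27964662 to 27965351) and had 4.06, 3.51 and 4.38 CPM with VitC, against 5.34, 6.11 and 4.59 CPM in controls. It was lower by TMM scaling (-0.40 ± 0.10) and at 0.023 with scaling by all counted reads. For Ccnd1 the nearest peak (chromosome 1, 218097720 to 218098088) had 1.64, 1.47 and 1.90 CPM with VitC, against 2.26, 2.73 and 2.39 CPM in controls (-0.55 ± 0.15), and its call was lost with scaling by all counted reads (-0.12, adjusted p = 0.461 in edgeR). For Ccnd2 it (chromosome 4, 159699873 to 159700356) had 2.45, 2.21 and 2.26 CPM with VitC, against 1.62, 2.21 and 1.71 CPM in controls. That rise of 0.34 ± 0.15 (adjusted p = 0.0366 in edgeR) was lost under 6 of 14 alternatives, with replicates 1 and 3 summed among them.

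The Kif11 peak at -863 bases from the start (chromosome 1, 256034616 to 256035391) had 3.34, 3.01 and 3.60 CPM with VitC, against 5.41, 5.59 and 5.02 CPM in controls (-0.68 ± 0.10), a call lost with scaling by all counted reads (-0.25, adjusted p = 0.0530 in edgeR). The single Cdk2 peak, in the gene body (chromosome 7, 3125924 to 3128457), had 17.2, 17.7 and 18.2 CPM with VitC, against 20.3, 20.01 and 19.97 CPM in controls (-0.18 ± 0.05), and changed direction with scaling by all counted reads (0.25). The Mcm6 peak 12937 bases into the gene (chromosome 13, 45054579 to 45055701) had 5.84, 6.37 and 5.58 CPM with VitC, against 4.89, 4.63 and 4.62 CPM in controls (0.33 ± 0.09). Groups did not overlap in these 3. The Tpx2 peak 13398 bases into the gene (chromosome 3, 148340926 to 148341844) had 3.56, 4.13 and 3.70 CPM with VitC, against 7.11, 5.98 and 5.99 CPM in controls (-0.74 ± 0.10), and passed at -0.31 with scaling by all counted reads. The Aurka peak (chromosome 3, 170372644 to 170373619) had 4.53, 3.81 and 4.43 CPM with VitC, against 4.70, 4.37 and 4.01 CPM in controls and overlapped between groups (-0.03 ± 0.10).

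Summed over all peaks of a gene, hMeDIP reads were higher in 15 members, lower in 5 and not past the threshold in 8. Of all 17003 genes with a peak, 76.7% passed, 35.2% higher and 41.5% lower, and the median log2 change was 0.20 over the 28 members and -0.02 over all genes. Cdkn2c, with 1 peak, had 2.92, 4.05 and 3.48 CPM with VitC, against 1.69, 1.69 and 2.02 CPM in controls (0.94 ± 0.14, adjusted p = 8.69e-07 in edgeR). Top2a, with 2 peaks, had 5.59, 5.597 and 4.53 CPM with VitC, against 2.71, 3.33 and 3.09 CPM in controls (0.78 ± 0.11). Neither overlapped between groups. E2f3 had 76.1, 80.2 and 77.6 CPM with VitC, against 50.9, 49.6 and 52.2 CPM in controls (0.61 ± 0.03, adjusted p = 2.57e-16 in edgeR), the smallest p of the 28.

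Cdk6 summed to 330, 329 and 331 CPM with VitC, against 292, 292 and 297 CPM in controls (0.17 ± 0.02). The lower sums were small changes: Bub1b fell by 0.25 ± 0.05, Cdk2 by 0.18 ± 0.05, Mcm6 by 0.18 ± 0.05, Rb1 by 0.16 ± 0.03 and Tpx2 by 0.09 ± 0.04. The call of Tpx2 was lost with replicates 1 and 3 summed (adjusted p = 0.218 in edgeR). Scaled by all counted reads, 27 sums were higher and 0 lower, against 65.8% and 18.4% of all genes, with Bub1b the exception (0.18, adjusted p = 0.0557 in edgeR). All 5 falls under TMM scaling are thus falls relative to other peaks, and turn positive under the other scaling.

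**Figure D5:**
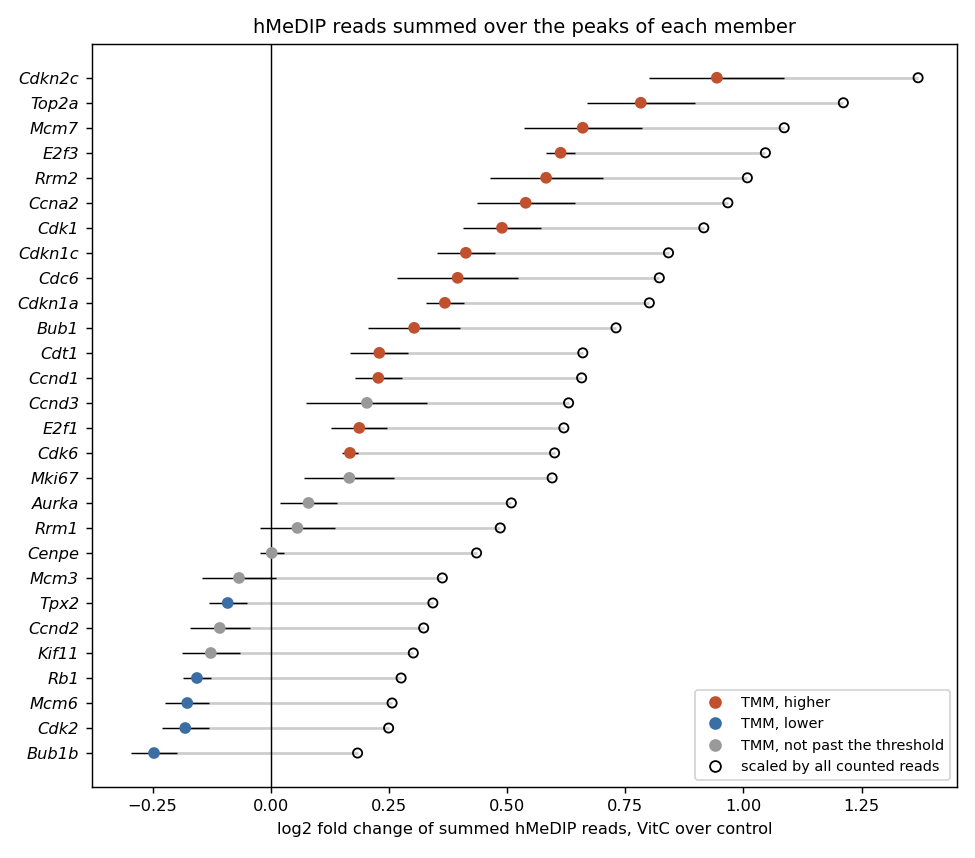
Log2 fold change of hMeDIP reads summed over the peaks of each of the 28 members, VitC over control (horizontal axis). Filled points with the standard error are scaled by TMM factors, from 0.94 in Cdkn2c to -0.25 in Bub1b, and open points are scaled by all counted reads, where all 28 are above 0.

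Set beside RNA, the directions were mixed. Among the 4 members whose RNA rose, the hMeDIP sum was higher in Cdk6 and Cdkn1a, lower in Rb1 and not past the threshold in Ccnd2 (-0.11 ± 0.06). Among the 6 whose RNA fell, it was lower in Cdk2, Mcm6 and Tpx2, higher in Ccnd1 (0.23 ± 0.05) and not past the threshold in Aurka and Kif11. Of the 13 tested members whose RNA did not pass, 8 had higher sums and 0 lower ones. Of the 5 with too few RNA reads to test, Cdk1, Cdc6, Rrm2 and Top2a had higher sums and Bub1b a lower one.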

How the data were processed

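RNA, hMeDIP DNA and input DNA were each sequenced in 3 VitC and 3 control libraries. Whole-number read counts were deposited by the authors, for each gene in RNA and for each peak in hMeDIP and input, with a peak list. Per the submitters' processing notes, HTSeq, STAR, BWA, Trim Galore and CASAVA 1.4 were used, in roles that are not stated. The build, annotation, peak caller, merging rule and strand setting were not given in the sources used here. Reads of overlapping or antisense genes and of near-identical copies therefore cannot be told apart. Total RNA depleted of ribosomal RNA gave 23381814 to 33173282 reads in genes per library, hMeDIP 24020306 to 39899445 reads in peaks and input 7201638 to 9521037. Entries that name no gene or peak held 42.3% to 53.9% of RNA, 56.1% to 69.2% of hMeDIP and 91.3% to 91.6% of input reads and were left out of sizes and tests. Molecular identifiers are not mentioned in the labels, so reads may not be independent molecules.

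Counts were tested over all genes or peaks with edgeR 4.0.16 in R 4.3.3 (quasi-likelihood F test, TMM, default filter on low counts, Benjamini-Hochberg at 0.05), treatment being the only term. Enrichment over input was tested as an interaction with a term per sample. Gene sums add the hMeDIP reads of all peaks naming a gene. The procedure was tested on simulated data. Replicates 1 and 3 of hMeDIP were to be summed where their chi-square per degree of freedom was under 1.1 and that of other pairs over 1.5. The second condition was not met, so all 3 libraries entered and the 2 against 2 fit is an alternative. Replicate numbers are not said to pair samples. The members, gene lists and tests were chosen with earlier results of these data known. Every found member is accounted for. RNA members past the threshold, the one with most reads per role that did not pass, the 6 higher and 6 lower member peaks with the smallest p, the peak nearest the start of each member called in RNA, and up to 4 genes per list are named with values. The promoters shown were chosen after values were seen. Other tools were matplotlib 3.10.9, scipy 1.17.1, pandas 2.3.3, numpy 2.4.6, Python 3.11.15 and DESeq2 1.42.0.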

Additional observations from a re-analysis of the deposited data

How the results depend on the processing

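The 10 members called in RNA kept their direction in all alternatives, which were other scaling factors, filters, DESeq2, the replicate number as a block and leaving out each library. The members called higher numbered 3 to 4 and those lower 4 to 6 on leaving out a library, and 4 and 4 in DESeq2. Over all genes, 2473 were higher and 2715 lower. Leaving out a library gave 1710 to 2718 higher and 1784 to 2916 lower, the fewest of each without control replicate 2. DESeq2 gave 2426 higher and 2246 lower. Calls that depend on a setting are those of Aurka, Kif11, Rb1, E2f3, Mcm7 and Cdt1, given with the results.

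Scaling by all counted reads moved the hMeDIP counts. Over all peaks it gave 131502 higher and 52887 lower, and over the members' peaks 9 lower. Over all genes it gave 11194 sums higher and 3122 lower, and over the members 27 higher and 0 lower. It reversed the sums of Ccnd2 (0.32), Cdk2 (0.25), Rb1 (0.28), Mcm3 (0.36), Mcm6 (0.26), Bub1b (0.18), Kif11 (0.30) and Tpx2 (0.34), and the peaks nearest the start in Cdk6 (0.023), Aurka (0.40) and Cdk2 (0.25). With gene body peaks only, 7 members' sums were higher and 8 lower, and those of E2f1 (-0.072), Mcm3 (0.62), Rrm1 (-0.28) and Bub1 (-0.59) changed sign, since their promoter peaks were left out. Over all 11733 genes with such peaks, 4170 sums were higher and 4881 lower. Members with promoter peaks only, such as Ccna2, Cdkn1a and Cdkn1c, are not in these counts. The share of hMeDIP reads in peaks stayed higher with VitC, by 8.33 to 10.8 percentage points on leaving out a library.

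The replicate numbers were not paired by the data: the deviations of same-numbered samples correlated at 0.13, 0.0020 and -0.0049 in RNA and at -0.03, -0.20 and -0.11 in hMeDIP. With the replicate number as a block, 4 members rose and 5 fell in RNA, and the call of Kif11 was lost (adjusted p = 0.0660 in edgeR). Over all 12925 genes tested, the block gave 2705 higher and 2839 lower. The block moved the members' hMeDIP peaks to 86 higher and 32 lower, where all 215951 peaks gave 78641 higher and 80263 lower. The sum of Tpx2 lost its call. The 5 members left out by the low-count filter in RNA had few reads at this depth.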
